A study of Homo sapiens with 32 samples.

Results

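This account follows 10 transcripts that guide B cells through lymphoid tissue: the chemokine receptor genes CCR7, CXCR4 and CXCR5, the lipid receptor genes S1PR1, S1PR2 and P2RY8, and the RGS genes RGS1, RGS2, RGS13 and RGS19. They were taken by symbol from a table of 25066 features, and each symbol occurs there once. Expression was measured in 2 human diffuse large B-cell lymphoma (DLBCL) lines, TMD8, an activated B cell type line, and DOHH2, a germinal centre B cell type line, both described as Cas9 engineered in every group. Cells received a CSK inhibitor (CSKi) at 500 nM or DMSO as vehicle, and RNA was taken after 1, 3, 6 or 24 h. Each of the 16 combinations of line, treatment and time has 2 libraries, 32 in all. The labels number the duplicates as biological replicates without saying whether they were separate cultures, so p-values measure the spread between these libraries, which may be technical.

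C-terminal Src kinase (CSK) keeps Src family kinases inactive by phosphorylating them. LYN is the main one of these in B cells, and they start signalling from the B cell receptor. B cells find their place by following chemokines and lipids through receptors that couple to G proteins. CXCR5 reads CXCL13 and leads into the follicle, CXCR4 reads CXCL12 and holds cells in the dark zone of the germinal centre, and CCR7 reads CCL19 and CCL21 and leads toward the T cell zone. S1PR1 draws cells out toward lymph and blood along sphingosine-1-phosphate. S1PR2 and P2RY8 act the other way, through the G protein subunit encoded by GNA13, and keep germinal centre B cells confined. RGS proteins speed the return of G alpha subunits to their inactive form and so shorten the signal from such receptors.

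Libraries held 12273442 to 24907030 mapped reads. A value below is the log2 of a read count scaled per library, so a difference of 1 is a doubling. It is not corrected for transcript length, and levels are therefore compared between samples and not between genes. A gene is said to rise, fall or pass where limma, fitted over the 12000 features of highest mean, gave an adjusted p under 0.05. Counts of such genes are set beside the share of all features called. The genes and lists were chosen with earlier results of these data known. A count above that share is therefore no test that the set responds more than other features. Summed marker levels matched the labelled lines: all 7 B cell markers had at least 10 reads in the median library of either line, activated B cell type markers summed to 3380 to 4090 CPM (recovered reads scaled to library size) in TMD8 and 328 to 414 in DOHH2, and germinal centre markers to 96.6 to 189 CPM in TMD8 and 786 to 1110 in DOHH2. S1PR2 is itself among the germinal centre markers, and 1 of the 7 in the table, LMO2, went against the label, at 1.66 ± 0.046 higher in TMD8 vehicle. T and NK cell markers summed to less than 5 CPM in each library. CD2 was at 0 throughout, but in DOHH2 each library held reads of CD3E (7 to 28), CD3G (4 to 17) and NKG7 (24 to 65). Fibroblast and epithelium markers summed to 124 to 185 CPM in TMD8, with CDH1 at 1638 to 2753 reads, and to at most 0.559 CPM in DOHH2. Myeloid markers summed to at most 6.22 CPM in TMD8 and 10.7 in DOHH2. The source of these reads was not tested. The CSK transcript, whose protein the compound targets, differed from vehicle by log2 values from -0.21 (DOHH2, 6 h) to 0.0075 (TMD8, 24 h). It was called lower at 3 h in TMD8 and at 3 and 6 h in DOHH2. A kinase inhibitor need not change its target's transcript, so these values do not check the treatment labels. The 4 DOHH2 libraries of 24 h stood apart from the rest. Across features, log2 differences had an SD of 0.371 between the 2 libraries labelled DMSO and 0.398 between those labelled CSKi, against 0.278 for DMSO replicate 1 with CSKi replicate 2 and 0.318 for DMSO replicate 2 with CSKi replicate 1. They were kept out of the DOHH2 tests at 1, 3 and 6 h, and are described separately.

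In vehicle, the lines carried different receptor sets. TMD8 had far more CCR7 and S1PR1 transcript, and DOHH2 far more CXCR4, S1PR2 and RGS13. Over the 6 vehicle libraries of 1, 3 and 6 h, CCR7 ran from 10.72 to 11.05 in TMD8 (median 10.79) and from 6.65 to 7.38 in DOHH2 (median 7.03). The difference of 3.86 ± 0.041 (estimate ± SE of the fit, here and below) is 14.5-fold. CXCR4 lay between 9.78 and 10.76 in TMD8 (median 9.99) and between 13.82 and 14.04 in DOHH2 (median 13.83), 13.2-fold lower in TMD8 (-3.72 ± 0.043). The groups do not overlap for either receptor, and they differ in opposite directions.

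The lipid receptors were split in the same way between the lines. S1PR1, the exit receptor, ranged from 10.72 to 11.05 in TMD8 and from 8.24 to 8.57 in DOHH2, 5.51-fold higher in TMD8 (2.46 ± 0.052). S1PR2, the confining receptor, ranged from 6.92 to 7.54 in TMD8 and from 11.56 to 11.94 in DOHH2, a 24.6-fold difference (-4.62 ± 0.078) and the largest of the 10. P2RY8, the receptor that shares its G13 route, differed little (-0.36 ± 0.029). P2RY8 lies in the pseudoautosomal region, so reads of its X and Y copies cannot be told apart, and it is reported as uncertain for that reason.

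Among the RGS genes, RGS13 showed the widest gap, with 9.20 to 9.40 in TMD8 and 11.71 to 11.91 in DOHH2 (-2.51 ± 0.037, 5.68-fold lower in TMD8). RGS13 is known as a germinal centre B cell RGS gene. RGS19 was lower in TMD8 by 1.57-fold (-0.65 ± 0.026). CXCR5 (0.79 ± 0.031) and RGS2 (0.35 ± 0.054) were higher there, but RGS2 ranged from 9.42 to 10.16 in TMD8 and from 8.77 to 10.22 in DOHH2, so its groups overlap. RGS1 was scarce in both lines, from 4.39 to 5.33 in TMD8 and from 3.86 to 6.09 in DOHH2, and its difference of -0.35 ± 0.20 did not pass (limma adjusted p = 0.0971). In all, 9 of 10 passed, 4 higher in TMD8 and 5 higher in DOHH2, beside 89.4% of all 12000 features tested (43.8% higher in TMD8, 45.6% lower), so a line difference as such is common to most transcripts. In these bulk samples, fewer cells with a transcript and less transcript per cell cannot be told apart.

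**Figure D1:**
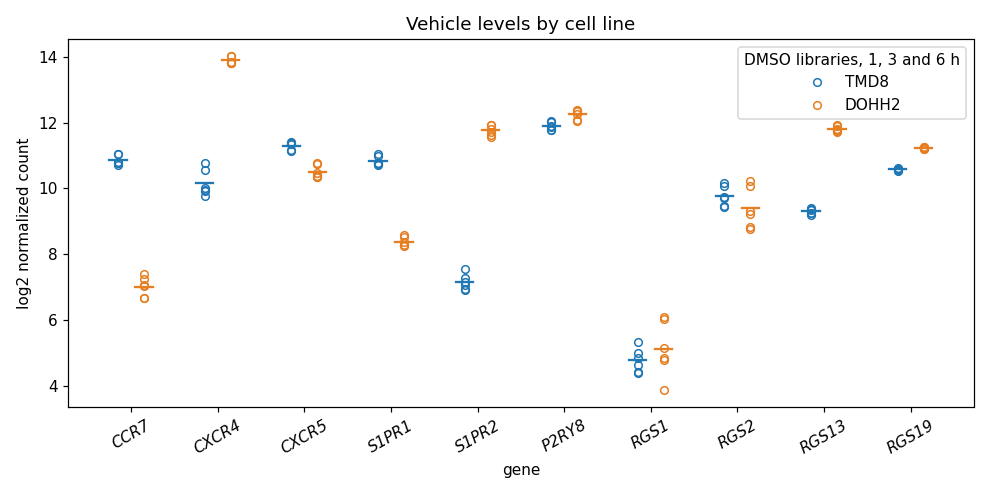
Log2 normalized count of each gene in the 6 DMSO libraries of 1, 3 and 6 h per line (open circles) with their mean (bar). CCR7 and S1PR1 are higher in TMD8, CXCR4, S1PR2 and RGS13 are higher in DOHH2, and heights are to be compared within a gene only.

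Vehicle levels were not constant over time, which sets the base for each treatment difference. In TMD8, CXCR4 fell from 10.56 and 10.76 in the libraries of 1 h to 10.01 and 9.78 at 3 h (-0.77 ± 0.083) and stood at 10.87 and 10.57 at 24 h. RGS2 also fell by 0.67 to 3 h, and 5 of 9 genes had changed between these times (1 higher, 4 lower), beside 19.4% of all features (9.68% higher, 9.68% lower). RGS13 rose 1.84-fold by 24 h (0.88 ± 0.087), and CCR7 fell by 0.49. Against 1 h, 4 of 9 had changed at 24 h (2 higher, 2 lower) beside 46.7% (22.8% higher, 23.9% lower), and 6 at 6 h (2 higher, 4 lower) beside 23.5% (11.2% higher, 12.4% lower). Of 9 genes tested in TMD8, 7 changed over the 4 times by limma's F test, beside 58.4% of all features, and S1PR2 and RGS19 did not pass. In DOHH2, RGS2 fell 2.56-fold between 1 and 6 h (-1.36 ± 0.08) and RGS1 fell 3.28-fold (-1.72 ± 0.30), while S1PR2 rose by 0.34. Between these times 7 of 10 had changed (1 higher, 6 lower), beside 43.7% of all features (20.3% higher, 23.4% lower), and from 1 to 3 h also 7 (1 higher, 6 lower), beside 33.8% (16.5% higher, 17.3% lower). There, 8 of 10 changed over 1, 3 and 6 h, beside 52.9% of all features, and S1PR1 and RGS19 did not pass. With the 24 h libraries in that fit, 4 of 10 changed, and the features called fell as well, from 6343 to 2964 of 12000.

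In TMD8, CSK inhibition was followed from 3 h by higher CCR7 and CXCR4 and by lower CXCR5, RGS2 and RGS13. At 1 h none of the 9 genes tested had changed. By 24 h, CCR7 was 2.54-fold and CXCR4 1.92-fold above vehicle, RGS13 was 2.44-fold and RGS2 1.77-fold below it, and S1PR1, S1PR2 and P2RY8 had risen as well.

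The chemokine receptors separated early. CCR7 measured 11.05 and 11.05 in the vehicle duplicates at 1 h, 10.72 and 10.77 at 3 h, 10.77 and 10.80 at 6 h and 10.66 and 10.45 at 24 h. With CSKi it measured 10.95 and 10.98, then 11.29 and 11.24, 11.41 and 11.41 and 11.93 and 11.88. From 3 h on, both treated libraries lay above both vehicle libraries, and the difference was 0.52 ± 0.056 at 3 h, 0.63 ± 0.056 at 6 h and 1.34 ± 0.056 at 24 h (adjusted p = 1.11e-15). Vehicle CCR7 fell over the same hours, and the treated libraries were highest at 24 h. CXCR4 measured 10.56 and 10.76, 10.01 and 9.78, 9.92 and 9.96 and 10.87 and 10.57 in the vehicle pairs of 1, 3, 6 and 24 h. The treated pairs were 10.77 and 10.80, 10.46 and 10.43, 10.54 and 10.55 and 11.75 and 11.57. Here too the groups did not overlap, and the rise was 0.55 ± 0.083, 0.61 ± 0.083 and 0.94 ± 0.083 at 3, 6 and 24 h. At 3 and 6 h, CXCR4 in the treated cells stayed nearer to its level of 1 h, which vehicle cells had left.

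CXCR5, the follicular receptor, went the other way. Its vehicle pairs were 11.15 and 11.13 at 1 h, 11.42 and 11.34 at 3 h, 11.38 and 11.33 at 6 h and 11.54 and 11.57 at 24 h. Under CSKi they were 11.20 and 11.05, 11.04 and 10.93, 11.14 and 11.14 and 11.16 and 11.10. Treated libraries lay between 10.93 and 11.20 over the 4 times while vehicle rose, and the difference was -0.40 ± 0.054 at 3 h, -0.21 ± 0.054 at 6 h and -0.42 ± 0.054 at 24 h. The call at 6 h was lost without CSKi replicate 1 or 2 or DMSO replicate 1 of that time (highest adjusted p = 0.103).

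Among the lipid receptors, S1PR1 was called at 24 h only. P2RY8 was called from 6 h, after a difference at 3 h that did not pass (0.13 ± 0.049). S1PR1 was 10.74 and 10.67 in vehicle and 11.23 and 11.27 with CSKi at 24 h, a rise of 0.55 ± 0.054, after -0.008 at 3 h and 0.026 at 6 h (95% interval at 6 h -0.086 to 0.14). P2RY8 was 12.003 and 12.05 in vehicle and 12.29 and 12.22 with CSKi at 6 h, and 11.86 and 11.77 against 12.30 and 12.14 at 24 h. Its rise was 0.23 ± 0.049 at 6 h, lost without CSKi replicate 1 (adjusted p = 0.0560), and 0.41 ± 0.049 at 24 h. Both receptors were thus higher at 24 h, with no overlap between groups. S1PR2 was low in this line, with 64 to 147 reads per library, and its difference at 6 h (0.37 ± 0.18) did not pass. At 24 h it stood at 7.46 and 7.06 in vehicle and 7.92 and 7.97 with CSKi (0.69 ± 0.18), a call that was lost without DMSO replicate 2 (adjusted p = 0.0579). Even so, treated TMD8 remained well under the 11.56 or more of the DOHH2 vehicle libraries of 1, 3 and 6 h.

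RGS2 and RGS13 fell, and RGS19 fell and then rose. RGS2, a regulator of Gq-coupled receptors, measured 9.46 and 9.42 in vehicle and 8.78 and 8.70 with CSKi at 3 h, 9.71 and 9.74 against 8.999 and 8.96 at 6 h and 10.30 and 10.30 against 9.30 and 9.66 at 24 h. The differences were -0.70 ± 0.091, -0.74 ± 0.091 and -0.82 ± 0.091, all with the treated pair below the vehicle pair. At 1 h the treated pair was the higher one (10.31 and 10.53 against 10.06 and 10.16), but that difference of 0.31 ± 0.091 did not pass (adjusted p = 0.697). RGS13 measured 9.34 and 9.26 against 9.04 and 8.91 with CSKi at 3 h, 9.20 and 9.25 against 8.43 and 8.26 at 6 h and 10.21 and 10.30 against 8.98 and 8.96 at 24 h. It was below vehicle by 0.32 at 3 h, 0.88 at 6 h and 1.29 at 24 h (SE 0.087). The first of these calls was lost without any 1 of the 4 libraries of 3 h (highest adjusted p = 0.320). The treated level was lowest at 6 h and higher again at 24 h, still below that of 1 h. Vehicle rose between 6 and 24 h from a mean of 9.22 to 10.26, and the gap was widest at 24 h.

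RGS19, which acts on Gi subunits, was lower by 0.33 ± 0.055 at 3 h (10.63 and 10.58 against 10.26 and 10.30) and by 0.36 ± 0.055 at 6 h (10.60 and 10.55 against 10.18 and 10.25). At 24 h it was higher, at 10.83 and 10.73 against 10.62 and 10.60 (0.17 ± 0.055), lost without CSKi replicate 1 or DMSO replicate 2 of 24 h (highest adjusted p = 0.124). Its vehicle level held between 10.53 and 10.63 throughout, and the change of direction lay in the treated libraries. RGS1, the gene of an RGS protein that limits chemokine responses, lay below the 12000 features tested in TMD8 and has no test in this line alone. It had 13 to 23 reads per vehicle library and 9 to 40 with CSKi. At 1 h both treated libraries (5.57 and 6.33) lay above vehicle (4.98 and 5.33), and at 6 h (4.07 and 3.75 against 4.64 and 4.42) and 24 h both lay below. At 3 h the groups overlapped, with 3.79 and 4.47 under CSKi and 4.39 and 4.85 in vehicle. Separation of 2 libraries from 2 was not counted over all features, and no direction is drawn from these few reads.

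**Figure D2:**
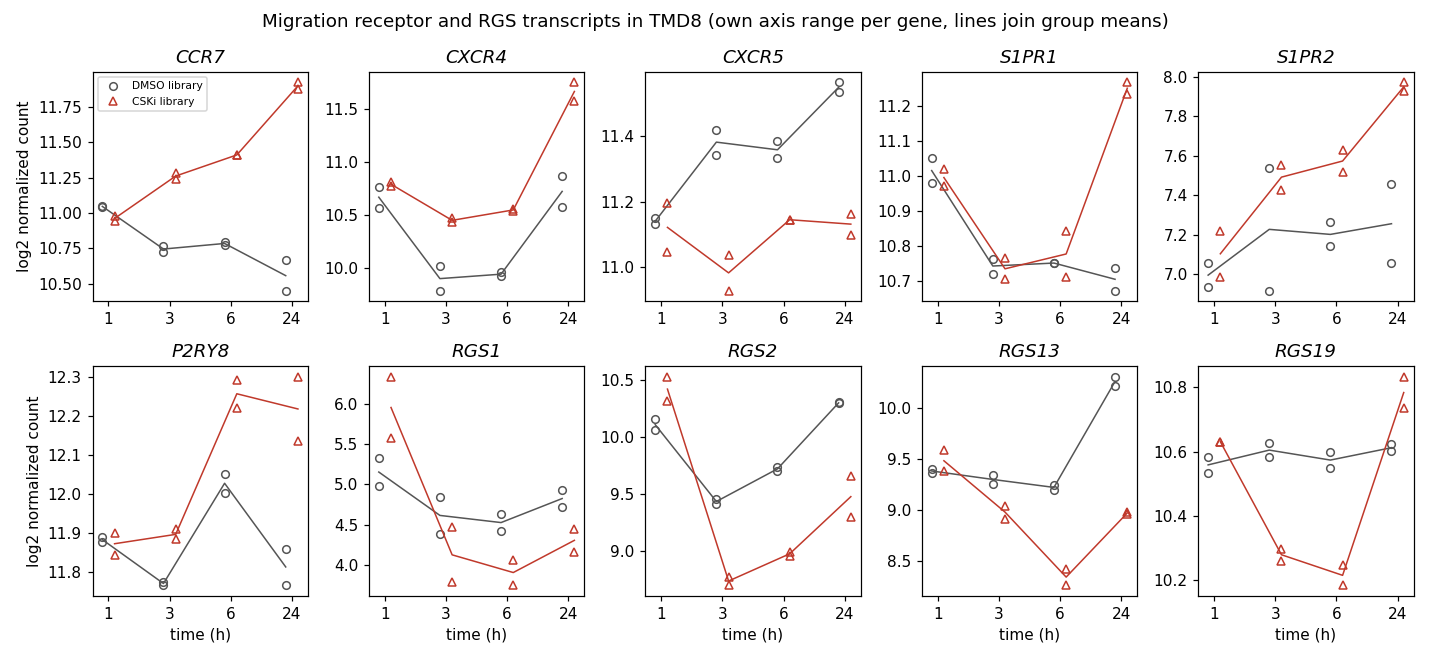
Log2 normalized count of each gene in the TMD8 libraries at 1, 3, 6 and 24 h (circles DMSO, triangles CSKi, lines through the group means, own axis range per gene). CCR7 climbs under CSKi to 11.93 and 11.88 at 24 h. Treated RGS13 is lowest at 6 h (8.43 and 8.26) and stands at 8.98 and 8.96 at 24 h.

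Counted together, 6 of the 9 genes tested in TMD8 had changed at 3 h, 2 higher and 4 lower, beside 4.73% of all features (1.48% higher, 3.26% lower). At 6 h 7 had changed, 3 higher and 4 lower, beside 12.6% (5.67% higher, 6.98% lower). At 24 h all 9 tested had changed, 6 higher and 3 lower, beside 54% of all features (27.9% higher, 26.2% lower), so a change as such was common at that time. The median log2 difference of the 9 was -0.008 at 3 h, 0.026 at 6 h and 0.41 at 24 h, against 0.011, 0.015 and 0.015 over all features. At 1 h, limma called 0 of the 9 and 0.05% of all features, 1 gene (RGS2) had an unadjusted p under 0.05, and voom on reads recovered from the values also called 0. Marker lists moved in both directions at 24 h. The summed level of 7 B cell markers was 3670 to 3720 CPM in vehicle and 4820 to 5000 CPM with CSKi at 24 h, and 6 of 7 were higher. Activated B cell type markers summed to 4050 to 4090 CPM in vehicle and 3500 to 3570 CPM with CSKi, with 2 of 8 higher and 4 lower. Germinal centre markers summed to 188 to 189 CPM and 113 to 118 CPM, with S1PR2 higher and LMO2 and MYBL1 lower of 5 tested. Of the 8 fibroblast and epithelium markers, 4 were tested and COL1A1, COL1A2 and CDH1 were higher at 24 h. Their sum was 124 to 134 CPM in vehicle and 175 to 185 CPM with CSKi, and COL3A1 and EPCAM were at 0 reads in all 4 libraries of 24 h. Of the 8 myeloid markers, 1 (ITGAM) was tested and was higher. Their sum was 3.06 to 3.81 CPM in vehicle and 4.92 to 6.22 CPM with CSKi, with MPO and S100A8 at 0 in these libraries. The part of these markers in the results was not tested.

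The response of TMD8 went on changing between 6 and 24 h. The CSKi difference at 24 h exceeded that at 6 h by 0.72 ± 0.079 for CCR7, 0.52 ± 0.077 for S1PR1 and 0.53 ± 0.078 for RGS19, and it was lower by 0.41 ± 0.12 for RGS13. CXCR4 (0.34 ± 0.12, adjusted p = 0.0315) and CXCR5 (-0.20 ± 0.076, adjusted p = 0.0428) passed narrowly. RGS2 (-0.077 ± 0.13), S1PR2 (0.32 ± 0.25) and P2RY8 (0.18 ± 0.069) did not pass, so 6 of 9 did (4 higher, 2 lower), beside 29.6% of all features (15.4% higher, 14.1% lower). Without CSKi replicate 1 or DMSO replicate 1 of 6 h, or DMSO replicate 2 of 24 h, CXCR4, CXCR5 and RGS13 were lost and 3 of 9 passed. Over the alternatives run, CXCR4 and CXCR5 each lost the call in 9 of 16 (highest adjusted p = 0.265 and 0.144).

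In DOHH2, 4 of the 10 genes had changed by 1 h of CSKi. CXCR4 and S1PR1 were higher and RGS2 and CXCR5 were lower. By 3 and 6 h RGS2 had crossed to the higher side, RGS1 was above vehicle and RGS19 was below it. CXCR4, already high in this line, rose at each of the 3 times.

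CXCR4 measured 14.04 and 14.02 in vehicle and 14.48 and 14.50 with CSKi at 1 h, 13.82 and 13.83 against 14.42 and 14.45 at 3 h and 13.82 and 13.82 against 14.61 and 14.63 at 6 h. Duplicates lay close together without overlap of the groups, and the rise was 0.46 ± 0.028, 0.61 ± 0.028 and 0.80 ± 0.028 (1.75-fold at 6 h). When the 24 h libraries, whose CXCR4 levels split within each labelled group, were added to the fit, the same 3 differences did not pass (adjusted p = 0.981, 0.272 and 0.170). CXCR5 fell at 1 h, from 10.76 and 10.74 to 10.13 and 10.26 (-0.56 ± 0.057, adjusted p = 2.64e-07). At 3 h (0.15 ± 0.057) and 6 h (-0.087 ± 0.057) its difference did not pass. CCR7 was low here, with 27 to 166 reads per library. It passed narrowly at 3 h (6.66 and 6.65 against 7.03 and 7.12, 0.42 ± 0.14, limma adjusted p = 0.0494). This call was lost without any 1 of the 4 libraries of that time. It was also lost with total mapped scaling, voom, no filter on low values, or the 24 h libraries in the fit. In all, 8 of 13 alternatives ended it (differences of 0.38 to 0.46, highest limma adjusted p = 0.58). At 6 h the CCR7 difference of 0.19 ± 0.14 did not pass.

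S1PR1 rose early, from 8.37 and 8.57 to 8.95 and 9.13 at 1 h (0.57 ± 0.11) and from 8.52 and 8.24 to 8.72 and 8.99 at 3 h (0.48 ± 0.11), and its difference at 6 h was 0.15 ± 0.11. The call of 1 h was lost without CSKi replicate 2 or DMSO replicate 1 (highest adjusted p = 0.120) and that of 3 h without either replicate 2 (0.118). With the 24 h libraries in the fit neither passed (adjusted p = 0.269 and 0.128). S1PR2, abundant in this line, did not pass at any of the 3 times, with differences of 0.13 ± 0.045, -0.034 ± 0.045 and -0.063 ± 0.045. Its 95% interval at 6 h was -0.15 to 0.029, so a change as large as that of CXCR4 lies outside it. P2RY8 was lower at 3 h (12.36 and 12.39 against 12.05 and 12.18, -0.26 ± 0.044) and differed by 0.0065 at 6 h, where its vehicle level had come down to 12.06 and 12.06.

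RGS2 reversed. At 1 h it was 10.08 and 10.22 in vehicle and 8.95 and 9.06 with CSKi, 2.21-fold lower (-1.15 ± 0.08). At 3 h it was 9.23 and 9.30 and 9.88 and 9.70 (0.52 ± 0.08), and at 6 h 8.77 and 8.82 and 9.38 and 9.26 (0.52 ± 0.08). Vehicle cells thus started high and declined, while treated cells started low and peaked at 3 h. These 3 calls held under each alternative run.

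RGS19 was lower with CSKi, at 11.23 and 11.24 in vehicle against 10.78 and 10.85 at 3 h (-0.42 ± 0.049) and 11.21 and 11.26 against 10.68 and 10.74 at 6 h (-0.53 ± 0.049). Its vehicle level stayed within 11.18 and 11.26. RGS1 had 11 to 54 reads per vehicle library and 33 to 61 with CSKi over these times. At 3 h RGS1 was 5.13 and 4.77 in vehicle against 5.73 and 6.39 with CSKi (1.11 ± 0.30). At 6 h it was 3.86 and 4.83 against 5.67 and 5.45 (1.22 ± 0.30, 2.33-fold). The treated mean itself declined from 6.47 at 1 h to 5.56 at 6 h, while the vehicle mean declined further, from 6.06 to 4.34. These low counts carry wide errors, and the calls were lost without either replicate 2 at 3 h (highest adjusted p = 0.172) and without either replicate 1 at 6 h (0.189). RGS13 rose slightly at 6 h, from 11.73 and 11.71 to 11.98 and 11.91 (0.23 ± 0.041), and adjusted p was 0.390 with the 24 h libraries in the fit.

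**Figure D3:**
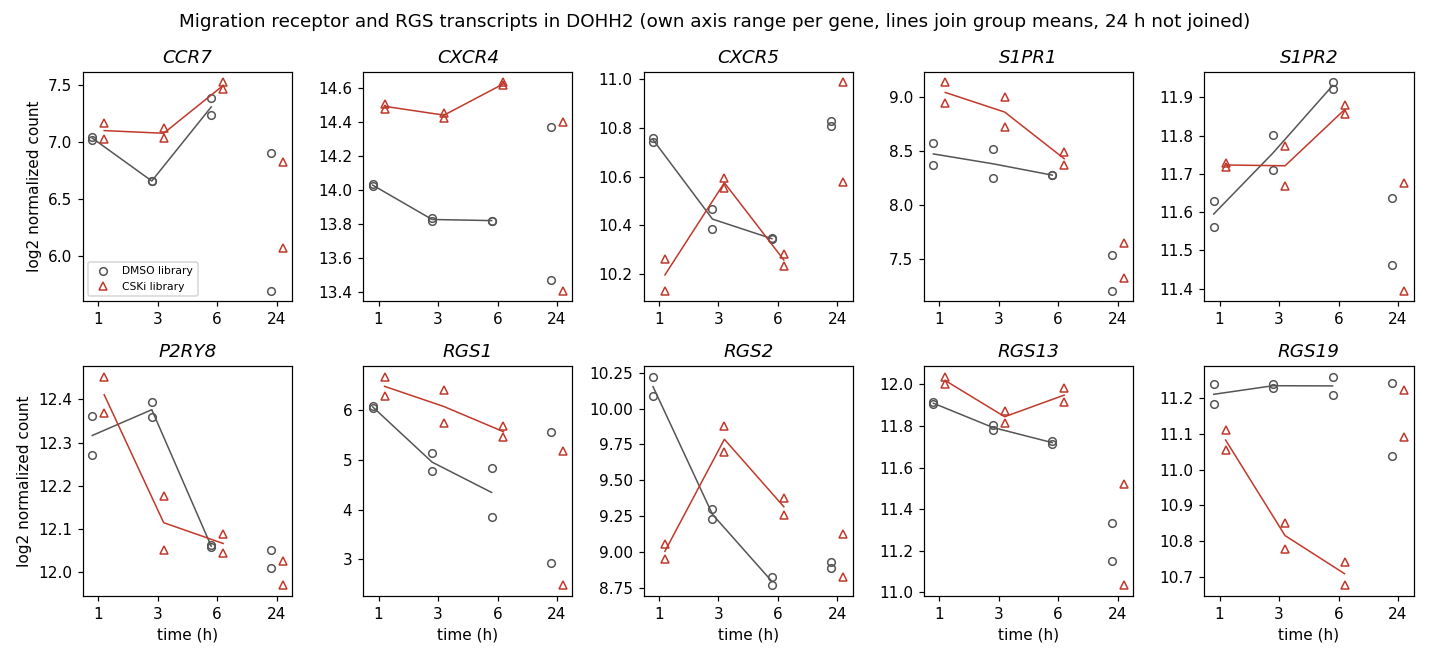
Log2 normalized count of each gene in the DOHH2 libraries (circles DMSO, triangles CSKi, own axis range per gene, lines through the group means of 1, 3 and 6 h). RGS2 starts at 10.08 and 10.22 in vehicle and at 8.95 and 9.06 with CSKi and then crosses over, and at 24 h the libraries of a label lie far apart for CCR7, CXCR4 and RGS1.

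Of the 10 genes, 4 had changed at 1 h in DOHH2 (2 higher, 2 lower), beside 2.05% of all features (0.825% higher, 1.23% lower). At 3 h 7 had changed (5 higher, 2 lower) beside 14.5% (7.28% higher, 7.27% lower), and at 6 h 5 had changed (4 higher, 1 lower) beside 13.6% (6.96% higher, 6.67% lower). Medians of the 10 differences were 0.10, 0.28 and 0.17, against -0.002, -0.002 and -0.001 over all features. With the 24 h libraries in the fit the counts were 2, 3 and 2. The features called fell as well, from 246, 1745 and 1635 to 45, 315 and 106 of 12000. Without CSKi replicate 2 or DMSO replicate 2 of 3 h the count at 3 h was 4. Marker lists moved in DOHH2 too. Germinal centre markers summed to 923 to 925 CPM in vehicle and 1090 to 1100 CPM with CSKi at 3 h (2 of 7 higher, 2 lower), and to 875 to 885 CPM and 1090 to 1110 CPM at 6 h (3 of 7 higher). B cell markers summed to 1910 CPM in both vehicle libraries and 1960 to 2060 CPM with CSKi at 3 h (2 of 7 higher, 2 lower), and to 1690 to 1750 CPM and 1710 to 1770 CPM at 6 h (3 higher, 3 lower). Activated B cell type markers had 1 of 6 tested called at each time. Of the 8 myeloid markers, 1 (LYZ) was tested, and it was higher at 3 h. Their sum was 7.37 to 7.44 CPM in vehicle and 9.48 to 10.7 CPM with CSKi, with FCGR3A, MPO, S100A8 and S100A9 at 0 in these 4 libraries. The part of these lists in the results was not tested.

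The line difference of the response was tested directly at matched times, as the CSKi difference in TMD8 minus that in DOHH2. RGS2 differed at each time: by 1.46 ± 0.13 at 1 h, when it fell in DOHH2, and by -1.22 ± 0.13 and -1.26 ± 0.13 at 3 and 6 h, when it fell in TMD8 and rose in DOHH2. For CXCR5 the difference of the responses also turned sign, from 0.54 ± 0.075 at 1 h to -0.55 ± 0.075 at 3 h. CXCR5 fell in DOHH2 at 1 h and in TMD8 at 3 h, and its DOHH2 difference at 3 h did not pass. At 6 h its line difference did not pass (-0.13 ± 0.075). The 1 h call was lost with the DOHH2 24 h libraries in the fit (limma adjusted p = 0.0773). RGS13 differed by -0.37 ± 0.09 at 3 h (lost without DOHH2 CSKi replicate 1, DOHH2 DMSO replicate 1, TMD8 CSKi replicate 2 or TMD8 DMSO replicate 1) and -1.11 ± 0.09 at 6 h, and P2RY8 by 0.39 ± 0.07 at 3 h. CCR7 differed at 6 h (0.44 ± 0.10), lost without the DOHH2 DMSO replicate 2 of 6 h, and RGS1 at 6 h (-1.84 ± 0.48, adjusted p = 0.0211), lost without DOHH2 CSKi replicate 1, DOHH2 DMSO replicate 1, TMD8 CSKi replicate 2 or TMD8 DMSO replicate 1. S1PR1 differed at 1 h (-0.59 ± 0.13) and 3 h (-0.49 ± 0.13), where 9 of 17 alternatives ended each call, leaving out any TMD8 library of that time among them.

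CXCR4 and RGS19 are the members for which no line difference passed at any of the 3 times and whose calls had the same sign in both lines at 3 and 6 h. For CXCR4 the difference of the responses was -0.34 ± 0.11 at 1 h, with a 95% interval of -0.56 to -0.12 that leaves out 0 (limma adjusted p = 0.3). It was -0.063 ± 0.11 at 3 h (-0.28 to 0.16) and -0.20 ± 0.11 at 6 h (-0.42 to 0.021). For RGS19 it was 0.20 ± 0.065 at 1 h (0.066 to 0.33, limma adjusted p = 0.354), 0.094 ± 0.065 at 3 h (-0.04 to 0.23) and 0.17 ± 0.065 at 6 h (0.033 to 0.30, limma adjusted p = 0.165). Missing the threshold does not show that the lines respond alike. Differences between the lines passed for 3 of 10 genes at 1 h, beside 0.45% of all features, for 5 at 3 h beside 4.82%, and for 4 at 6 h beside 5.98%. With the DOHH2 24 h libraries in the fit these counts were 1, 3 and 2. The features called fell as well, from 54, 579 and 717 to 17, 151 and 250 of 12000.

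**Figure D4:**
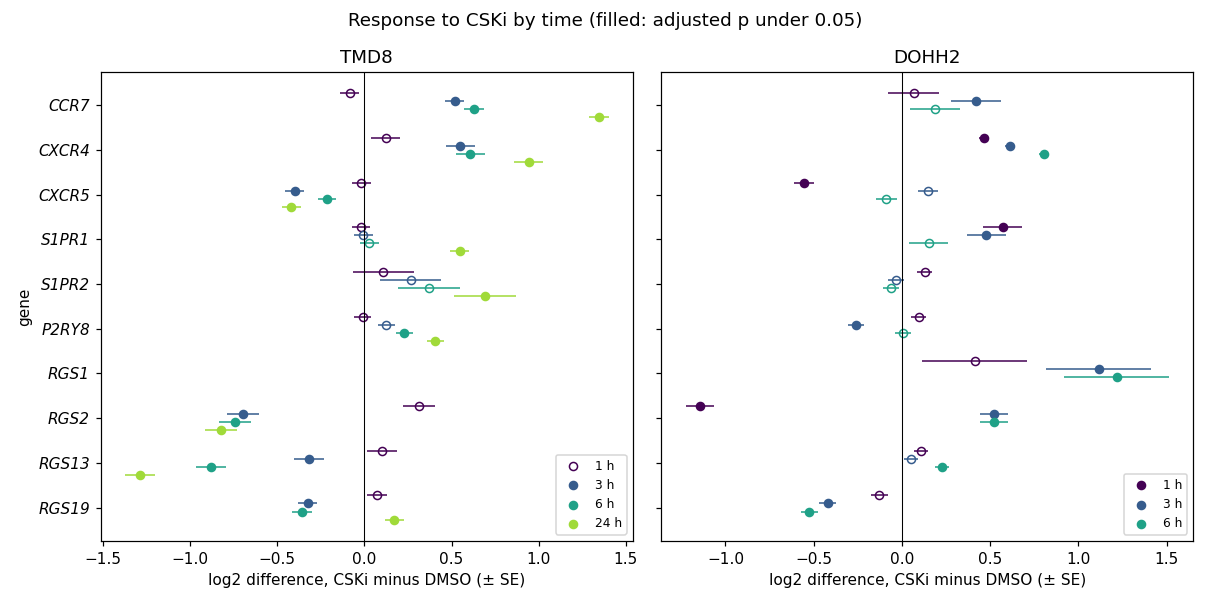
Log2 difference of CSKi and DMSO group means with its SE for each gene, by time, in TMD8 (left) and DOHH2 (right, without 24 h). Filled points have adjusted p under 0.05, RGS1 was not tested in TMD8, and RGS2 lies at -0.70 in TMD8 and 0.52 in DOHH2 at 3 h.

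RGS1, RGS13 and RGS2 lie near each other on chromosome 1, and RGS2 and RGS13 had opposite responses in the 2 lines at 6 h, so these promoter windows are shown, with that of CXCR4, which rose in both lines at 3 and 6 h. The sequences are from RefSeq on GRCh38.p14, a later build than the hg19 named for the counts. Each window runs from 250 bases before to 50 bases after a gene start, 5′ to 3′ on the gene's strand. They are RGS1 at chr1:192575523-192575822 (plus strand), RGS13 at chr1:192635897-192636196 (plus), RGS2 at chr1:192808789-192809088 (plus) and CXCR4 at chr2:136118100-136118399 (minus). Capitals mark matches, on either strand, to any of 6 searched motifs: EGR (GCGNGGGCG), FOXO (GTAAACA), KLF (CACCC), AP-1 (TGANTCA), NF-kB (a loose pattern of G's, free bases and C's) and E-box (CACGTG).
RGS1: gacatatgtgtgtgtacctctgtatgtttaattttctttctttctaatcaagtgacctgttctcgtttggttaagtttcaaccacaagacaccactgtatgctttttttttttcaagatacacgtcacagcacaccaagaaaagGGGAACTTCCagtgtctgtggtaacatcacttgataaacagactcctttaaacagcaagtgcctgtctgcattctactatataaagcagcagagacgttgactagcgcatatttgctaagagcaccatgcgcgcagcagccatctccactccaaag
RGS13: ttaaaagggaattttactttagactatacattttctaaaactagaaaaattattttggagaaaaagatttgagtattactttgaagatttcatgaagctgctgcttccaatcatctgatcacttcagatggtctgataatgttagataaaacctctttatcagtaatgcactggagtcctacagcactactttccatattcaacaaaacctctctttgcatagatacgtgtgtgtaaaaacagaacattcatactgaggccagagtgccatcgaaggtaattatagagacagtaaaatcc
RGS2: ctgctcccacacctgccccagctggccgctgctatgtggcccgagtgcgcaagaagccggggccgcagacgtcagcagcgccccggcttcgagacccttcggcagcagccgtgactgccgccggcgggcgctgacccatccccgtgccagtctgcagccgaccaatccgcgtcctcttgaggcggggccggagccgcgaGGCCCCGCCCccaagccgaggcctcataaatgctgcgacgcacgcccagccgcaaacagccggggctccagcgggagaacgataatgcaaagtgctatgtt
CXCR4: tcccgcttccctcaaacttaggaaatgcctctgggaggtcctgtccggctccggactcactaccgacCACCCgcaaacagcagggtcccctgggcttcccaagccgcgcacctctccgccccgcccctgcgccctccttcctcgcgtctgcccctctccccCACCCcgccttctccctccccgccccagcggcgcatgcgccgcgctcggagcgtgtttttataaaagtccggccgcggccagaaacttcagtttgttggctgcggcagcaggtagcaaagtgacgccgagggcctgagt

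The 3 neighbours differ in base composition, with a GC content of 41.7% in the RGS1 window, 33.7% in that of RGS13 and 69.7% in that of RGS2. The RGS1 and RGS2 windows hold 1 match to the NF-kB pattern each, the RGS13 window holds none of the 6, and the CXCR4 window shown, with 66.7% GC, holds 2 KLF matches. Of the 10 genes, 9 have a window in the RefSeq table. Some genes have several windows, and a gene is counted here where any of them holds a match, as CXCR4 does for NF-kB through windows not shown. So counted, 7 of these 9 hold the NF-kB pattern and 6 the KLF pattern, against 61.8% and 63.2% of all 27195 genes with a window outside the Y chromosome. Per single window the shares are 58.6% and 59.8% of 34943. EGR matches were found for CXCR4 and RGS19 (11.2% of all genes), an E-box for RGS19 (8.79%), and no FOXO (4.2%) or AP-1 (9.33%) match for any of the 9. A match is a string of letters and not a bound site. At 6 h of CSKi the neighbours had the same direction within a line. RGS13 (-0.88) and RGS2 (-0.74) were lower in TMD8, as they were at 3 and 24 h. In DOHH2, RGS13 (0.23), RGS2 (0.52) and RGS1 (1.22) were higher at 6 h. The earlier times of DOHH2 differed. At 1 h RGS2 was lower (-1.15) while RGS13 (0.11) and RGS1 (0.41) did not pass. At 3 h RGS2 (0.52) and RGS1 (1.11) were higher and RGS13 (0.05) did not pass. Shared regulation of these genes was not tested.

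The DOHH2 libraries of 24 h give no usable contrast as labelled. CXCR4 stood at 14.37 and 13.47 in the libraries labelled DMSO replicates 1 and 2 and at 13.40 and 14.40 in those labelled CSKi replicates 1 and 2. CCR7 (6.90 and 5.69, then 6.06 and 6.82) and RGS1 (5.56 and 2.93, then 2.48 and 5.18) split the same way. For these 3 genes the libraries labelled DMSO replicate 1 and CSKi replicate 2 were the high pair, and S1PR1 showed a smaller split of the same kind (7.53 and 7.20, then 7.32 and 7.64). RGS13 split the other way, with 11.15 and 11.34 and 11.52 and 11.03, the same 2 libraries being low. All 10 genes overlapped between the labelled groups, and overlap was not counted over all features. As labelled, limma called 0 of the 10 genes and 0 of all features (0%), with 0 genes and 378 of 12000 features at an unadjusted p under 0.05, and voom on recovered reads also called 0. Without the library labelled CSKi replicate 2, RGS13 alone among the 10 passed, as higher with CSKi, along with 647 features. No sample was moved to another group, and no direction is drawn from this time.

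**Figure D5:**
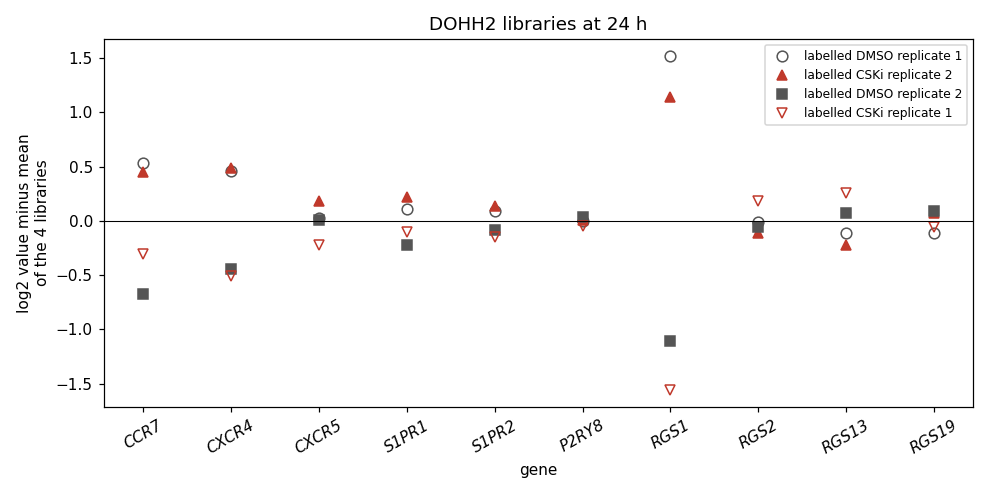
Log2 value of each gene in the 4 DOHH2 libraries of 24 h, less their mean, by label (grey DMSO, red CSKi). For CCR7, CXCR4 and RGS1 the libraries labelled DMSO replicate 1 and CSKi replicate 2 lie above the mean and the other 2 below it.

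The other genes of the migration pathway were read as lists, beside the shares of all features given above for each line and time. At 1 h in TMD8 no gene of these lists passed. Among other chemoattractant and lipid receptors, 34 of 39 listed are in the table, and 13 were tested in TMD8. There 3 were lower at 3 h, 1 was higher and 2 were lower at 6 h, and at 24 h 6 were higher and 2 lower, including the lysophosphatidic acid receptor LPAR2 (0.82 ± 0.053), GPR18 (0.74 ± 0.092), the adenosine receptor ADORA2A (0.42 ± 0.052) and the complement receptor C5AR1 (-1.04 ± 0.073). In DOHH2, of 16 tested, 1 was higher and 2 lower at 1 h, 3 higher and 2 lower at 3 h, and 3 higher and 1 lower at 6 h. ADORA2A fell at 6 h (-0.80 ± 0.061), LPAR5 fell at 3 h (-0.43 ± 0.07), and P2RY10 (0.59 ± 0.086) and the chemerin-binding CCRL2 (0.91 ± 0.15) rose at 3 h.

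Other RGS genes and G alpha regulators followed no single direction. Of 13 tested in TMD8, 5 were higher and 1 lower at 24 h, among them RGS9 (0.60 ± 0.086), RGS14 (0.47 ± 0.073), GPSM1 (0.74 ± 0.16) and GPSM3 (0.37 ± 0.049), while 1 was lower at 3 h and 1 was higher and 1 lower at 6 h. In DOHH2, of 12 tested, 1 was called at each of 1, 3 and 6 h, with RGS16 higher at 3 h (0.42 ± 0.056) and GPSM1 lower at 6 h (-1.04 ± 0.25). GPSM1 is a Gi regulator and was higher in TMD8 at 24 h and lower in DOHH2 at 6 h, times that differ and were not compared. Among 16 G protein subunits tested in TMD8, 3 were lower at 6 h, including GNG2 (-0.44 ± 0.06), and at 24 h 4 were higher and 6 lower, with GNB4 (-0.67 ± 0.073), GNG5 (-0.52 ± 0.065) and the Gi subunit GNAI3 (-0.39 ± 0.06) down. In DOHH2, 3 of 17 were higher and 1 lower at 3 h, namely GNB4 (0.20 ± 0.05), GNA12 (0.16 ± 0.045) and 1 more up and GNAZ (-0.34 ± 0.069) down, and GNG7 was higher at 6 h (0.54 ± 0.036).

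The kinases and arrestins that switch receptors off changed at 24 h in TMD8, where all 5 tested passed, 2 higher and 3 lower, beside 54% of all features. GRK5 was higher (0.54 ± 0.14), and GRK6 (-0.47 ± 0.063), the arrestin gene ARRB2 (-0.30 ± 0.087) and ADRBK2 (-0.16 ± 0.051) were lower. In DOHH2, GRK5 was lower at 3 h (-0.49 ± 0.058) and ADRBK1 higher at 6 h (0.094 ± 0.03), of 6 tested. Among 28 effectors of movement and adhesion, 4 were lower at 3 h in TMD8 and none higher, 1 higher and 7 lower at 6 h, and 15 higher and 5 lower at 24 h, with a median of 0.12 at 24 h. The Cdc42 activator DOCK8 (0.40 ± 0.036) and the Rap1 activator RAPGEF1 (0.37 ± 0.036) were higher. In DOHH2, 2 were higher at 1 h, 5 higher and 6 lower at 3 h, and 5 and 5 at 6 h. RHOH rose at 1 h (0.51 ± 0.044), the PI3 kinase gene PIK3CG at 3 h (0.68 ± 0.066) and RAPGEF1 at 6 h (0.35 ± 0.033), and the integrin activator FERMT3 fell at 6 h (-0.35 ± 0.041).

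The last list holds ligands, genes that make or degrade sphingosine-1-phosphate, and KLF2 and FOXO1, transcription factors known to drive S1PR1 and CCR7 in lymphocytes. In TMD8, where 12 were tested, 2 were lower at 3 h, 4 lower at 6 h, and 1 higher and 4 lower at 24 h. CXCL13, the ligand of CXCR5, was 7.97-fold lower at 24 h (-2.99 ± 0.24), on 9 to 118 reads per library over all TMD8 samples. KLF2 fell at 3 h (-0.69 ± 0.069) and was still lower at 24 h (-0.28 ± 0.069). FOXO1 was higher at 24 h (0.54 ± 0.08) and SPHK1, which makes sphingosine-1-phosphate, lower (-0.93 ± 0.17). In DOHH2, of 11 tested, 1 was higher at 3 h and 2 at 6 h. KLF2 was higher at 6 h (1.013 ± 0.23, 19 to 69 reads per library over all DOHH2 samples) and FOXO1 at 3 h (0.26 ± 0.046). The KLF2 response differed between the lines at 6 h by -1.38 ± 0.20. Whether KLF2 or FOXO1 took part in the S1PR1 or CCR7 differences was not tested.

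Across the 16 TMD8 libraries, the transcripts whose pattern was most like a gene of the set were found by Pearson correlation of the log2 values, as a description over libraries that share the 8 treatment and time groups. For CCR7 they were PBXIP1 (0.988), ABTB1 (0.975) and CLMN (0.968), and for CXCR4 IGFBP4 (0.968), ENGASE (0.961) and SIGLEC5 (0.954). RGS13 ran with TXNDC5 (0.986), SLC38A5 (0.978) and HSPA5 (0.966), RGS2 with ABTB2 (0.955), MYC (0.945) and PRR3 (0.923), and RGS19 with PTPRCAP (0.957), PPP1R16B (0.952) and FMNL3 (0.950). S1PR1 ran with BTG1 (0.982), FCRL3 (0.960) and C4orf34 (0.955), P2RY8 with FNBP1 (0.967), BMPR2 (0.947) and RGS9 (0.923), and CXCR5 with C9orf40 (0.898), GRPEL1 (0.869) and ELF3 (0.868). For S1PR2, on low counts, they were LRRC37A4 (0.954), TRIM4 (0.904) and GPER (0.895).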

How the data were processed

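Libraries were made with a stranded TruSeq mRNA kit and sequenced as paired 75 base reads, per the labels' protocols. The submitters' processing notes name hg19 and HTSeq, and no source used here gives the aligner, versions or strand setting. What the authors deposited is, for each feature, the log2 of a count times a factor per library, with 0 for no reads, as the values themselves show: dividing by the value of 1 read gave whole reads, within 0.1, for 98.87 to 100% of values up to 300 reads. The row that gives each library's mapped total entered no test. CPM is a recovered read count divided by that total, times 1e6.

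The log2 values were fitted with limma 3.58.1 (R 4.3.3) as group means, eBayes with a mean trend, two-sided, with Benjamini-Hochberg adjustment over the 12000 features of highest mean (at least 14.5 mean reads) and a call at adjusted p under 0.05. TMD8 contrasts came from 16 libraries, DOHH2 contrasts at 1, 3 and 6 h from 12, its 24 h contrast from 16, and comparisons of the lines from 28. The fit was tested on simulated data. Symbols and promoter windows are from RefSeq on GRCh38.p14. Python 3.11.15, pandas 2.3.3 and matplotlib 3.10.9 made tables and figures.

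Named besides the 10 genes are up to 4 genes per list and line with the smallest p among those called, the 3 features most like each gene, and CSK and LYN (LYN differed from vehicle by -0.14 to 0.13 at the called times of 3 and 6 h). Some genes that this rule would name are not reported here. The members and lists were chosen with earlier results of these data known. Alternatives were other filters, scalings, a pseudocount of 8, no trend, voom, a replicate block, other sets of libraries and leaving out each library; a block with crossed numbers at 24 h in DOHH2 was added after the data were seen.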

Additional observations from a re-analysis of the deposited data

Results flagged for a closer look

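In TMD8, the response to CSKi at 24 h differed from that at 6 h, by limma's test of the difference, for CCR7 (0.72), CXCR4 (0.34), CXCR5 (-0.20), S1PR1 (0.52), RGS13 (-0.41) and RGS19 (0.53), as log2 differences of responses with 2 libraries per group. RGS19 is the member whose called response had opposite signs at the 2 times.

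The response of TMD8 minus that of DOHH2 differed from 0 at 1 h for CXCR5 (0.54), S1PR1 (-0.59) and RGS2 (1.46). At 3 h it differed for CXCR5 (-0.55), S1PR1 (-0.49), P2RY8 (0.39), RGS2 (-1.22) and RGS13 (-0.37), and at 6 h for CCR7 (0.44), RGS1 (-1.84), RGS2 (-1.26) and RGS13 (-1.11). RGS2 is the member that differed at all 3 times, with the sign turning between 1 and 3 h.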

How the results depend on the processing

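Each member call was refitted under several alternatives, which gave 1233 pairs of a call and an alternative. Of these pairs, 102 ended the call and none reversed its sign. The F tests of vehicle over time have no sign, so for them only the call could change. Leaving out 1 library ended 60 of 508, adding the DOHH2 24 h libraries 19 of 45, testing all features without a filter 11 of 80, a fit without trend 9 of 80, total mapped scaling 2 of 80 and voom 1 of 80. With the DOHH2 24 h libraries in the fit, members called in DOHH2 went from 4 to 2 at 1 h, 7 to 3 at 3 h and 5 to 2 at 6 h, over time in vehicle from 8 to 4, and for the line difference from 3 to 1, 5 to 3 and 4 to 2 at 1, 3 and 6 h. Without the filter, 4 instead of 7 were called in DOHH2 at 3 h. The counts over all features fell under both settings too, and are given below. Without 1 library, members called ranged from 3 to 6 for TMD8 at 24 against 6 h, from 4 to 6 in DOHH2 at 3 h, from 3 to 5 for the line difference at 3 h (3 without TMD8 CSKi replicate 2 or DMSO replicate 1 of 3 h), and from 0 to 1 in DOHH2 at 24 h.

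Same replicate numbers showed no strong pairing over the features as a whole, which does not exclude pairing in part of them. The correlation of their deviations was 0.028 to 0.071 in TMD8 and -0.02 to 0.056 in DOHH2 before 24 h, and -0.38 at 24 h. The replicate block ended 0 of 80 member calls and left 9 of 9 called in TMD8 at 24 h. In DOHH2 it moved the features called from 246 to 472 at 1 h, from 1745 to 2059 at 3 h and from 1635 to 2020 at 6 h. Crossing the block numbers in DOHH2 at 24 h also gave 0 calls. That setting left the treatment labels as they were, so it cannot show whether libraries were exchanged.

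Counts over all features moved by over 1.5 times as follows. In TMD8 at 3 h, 568 became 256 to 315 without 1 library and 338 without trend, at 6 h 1518 became 836 to 889 without 1 library, and at 1 h 6 became 10 in a fit over both lines. In DOHH2 at 1 h, 246 became 116 without DMSO replicate 2, 130 without DMSO replicate 1, 160 without CSKi replicate 1, 147 without the filter, 91 without trend and 45 with the 24 h libraries. At 3 h, 1745 became 961 (without DMSO replicate 1), 1018 (DMSO replicate 2), 1150 (CSKi replicate 1), 1161 without the filter, 1024 without trend and 315 with the 24 h libraries. At 6 h, 1635 became 1007 without DMSO replicate 1, 948 without trend and 106 with the 24 h libraries. At 24 h, 0 became 7 without the filter and 1 without trend. The vehicle change over time in DOHH2 went from 6343 to 2964 with the 24 h libraries. Line differences went from 54 to 17, 579 to 151 and 717 to 250 with them, and at 3 h to between 327 and 382 without 1 of 5 libraries. Total mapped scaling moved the share of higher calls from 50% to 39.7% in DOHH2 at 3 h and from 45.3% to 62% for the line difference at 3 h.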
